A study of Mus musculus with 8 samples.

Results

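Cell proliferation genes are the 35 genes of this list, which was drawn up from what the genes do in the dividing cell: 13 act in S phase, when DNA is copied, and 22 act in mitosis, when the copied chromosomes are divided. All 35 were in the deposited table of 18901 mouse genes, and all 35 were among the 17124 genes with enough counts to be tested. They were measured by RNA-seq in skin from the cheek injection model of itch, in which brain natriuretic peptide (BNP) is injected into the cheek. Mice were injected at an age of 7 weeks with 10 µg of BNP, their scratching was recorded for 30 min, and they were killed 5 h after that. The 4 knockout mice carried TBX20fl/fl;K14-Cre, in which the K14 promoter drives Cre in keratinocytes and Cre removes exons 2 and 3 of the T-box transcription factor gene Tbx20. The 4 control mice carried the same floxed alleles, TBX20fl/fl, without Cre. The labels of the samples give genotype and tissue, while the injection is given by the title of the series and by the methods, so every mouse of both groups is taken here to be BNP-injected. Uninjected skin was not analysed here. Cells in which the K14 promoter is or was active, and their descendants, lose Tbx20, and whole skin also holds fibroblasts, vessels, immune cells, hair follicles and, in these libraries, muscle.

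Each mouse gave 1 library, with totals of 16056282 to 19880654 deposited counts. Tbx20 itself had 0 to 3 counts in every mouse of either group, at or under the 3 counts taken as the lowest number detected, so its deletion was not detectable at this depth and cannot check the labels. Keratinocyte markers were abundant in all 8 mice, with a mean of 8.08 to 8.72 log2 CPM (CPM, counts scaled to library size) over 7 basal keratinocyte genes. The list is well covered by reads: the smallest count of any member in any mouse was 17 (Plk1 in control replicate 2) and the largest 3875 (Pcna in knockout replicate 2). In whole skin, fewer dividing cells and less RNA per dividing cell cannot be told apart.

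As background, a cell that commits to division switches on its S-phase genes through E2F transcription factors. The MCM proteins, from Mcm2 to Mcm7, form the ring that unwinds DNA, and Cdc6 and Cdt1 load this ring onto replication origins. Later, in G2 and mitosis, a further group of genes is transcribed through promoter elements called the CCAAT box, bound by NF-Y, and the CHR, bound by the MuvB complex together with B-MYB and FOXM1. In skin, dividing cells lie mainly in the basal layer of the epidermis, in sebaceous glands and in the matrix of growing hair follicles, and the basal layer divides more after wounding.

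The promoters of many members carry one or more of these elements, and 4 are shown here because they cover both arms of the list and the member with the lowest fold change. RefSeq promoter windows on GRCm38.p6 were found for 30 of the 35 members, and the bases before each annotated start were searched on both strands, up to 250 per gene. Printed are up to 150 of those bases, 5′ to 3′ in the direction of the gene, with capitals for the CCAAT box (CCAAT, or ATTGG on the other strand), the CHR (TTTGAA) and E2F sites (TTTCCCGC, TTTCGCGC, TTTGCCGC or TTTGGCGC, either strand). Ccnb2 encodes the mitotic cyclin B2 (chr9:70421555-70421704, minus strand), Cdk1 its kinase partner (chr10:69352939-69353088, minus strand), Mcm5 a helicase subunit (chr8:75109359-75109508, plus strand) and Pcna the sliding clamp of the replication fork (chr2:132253315-132253430, minus strand).
Ccnb2: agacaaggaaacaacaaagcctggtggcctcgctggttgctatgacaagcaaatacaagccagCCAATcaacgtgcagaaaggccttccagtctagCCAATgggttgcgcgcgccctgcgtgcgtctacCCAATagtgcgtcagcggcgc
Cdk1: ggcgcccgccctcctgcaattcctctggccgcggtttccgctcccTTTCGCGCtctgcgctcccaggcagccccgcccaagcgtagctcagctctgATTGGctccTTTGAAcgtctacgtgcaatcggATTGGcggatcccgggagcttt
Mcm5: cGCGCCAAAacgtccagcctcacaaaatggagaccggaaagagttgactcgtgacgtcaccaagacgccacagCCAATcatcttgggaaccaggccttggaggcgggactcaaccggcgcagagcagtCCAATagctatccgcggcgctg
Pcna: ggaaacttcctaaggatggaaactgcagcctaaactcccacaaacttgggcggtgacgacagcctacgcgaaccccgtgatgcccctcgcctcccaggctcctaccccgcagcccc

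The stretch printed for Ccnb2 held 3 CCAAT boxes, which began 87, 54 and 21 bases before the start and so lay 33 bases apart, and a CHR began upstream of that stretch, at 167. In the stretch printed for Cdk1 an E2F site began 131 bases before the start, followed by a CCAAT box on the other strand at 80, a CHR at 71 and a further CCAAT box at 48, while a CCAAT box at 208 and a CHR at 15 lay outside it. Mcm5 had an E2F site on the other strand at 149, CCAAT boxes at 77 and 22 and, just outside the stretch printed, an E2F site at 153. The stretch printed for Pcna held none of these letters, and the CCAAT box counted for Pcna lies nearer to the start, at 87. Over the list, 16 of 18 mitotic members with a window held a CCAAT box (88.9%) and 8 of 12 S-phase members did (66.7%), against 39.6% of the 13319 tested genes with a window. The CHR was found in 8 of 18 mitotic members (44.4%) and 1 of 12 S-phase members (8.33%), against 13.9% of tested genes. All 8 of those mitotic members also held a CCAAT box, a pair of elements present in 6.24% of tested genes. E2F sites were found in 4 of 12 S-phase members (Mcm5, Mcm6, Mcm7 and Cdc6, 33.3%) and in 1 of 18 mitotic members (Cdk1, 5.56%), against 3.3%. The CHR variant TTCGAA was found in 2 of 18 mitotic members and 1 of 12 S-phase members, against 2.06%. None of these elements was found in the windows of Cdt1, E2f1, Tyms, Nusap1 and Birc5. The T-box half-site TCACACCT was in none of the 30 windows, against 1.07% of tested genes. These are matches of letters in a short window and say nothing of binding.

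No member passed an adjusted p-value of 0.05 between knockout and control mice, and most stood higher in the knockout group. In the quasi-likelihood test of edgeR, adjusted by Benjamini-Hochberg over 17124 genes, the adjusted p-values of the members ran from 0.498 to 0.942, and 0% of all genes passed. DESeq2 and limma, run as alternatives, also called 0 members. At an unadjusted p under 0.05, 3 members were higher in knockouts (Mki67, Bub1b and Cenpf, all mitotic) and 0 were lower, where 2.45% of all tested genes were higher and 5.91% lower. The log2 fold change was above 0 in 33 of 35 members, against 52.5% of all genes, and below 0 in Pcna and in Tyms, whose sign turned with limma on FPKM. Its median was 0.49 over the list, 0.29 over the 13 S-phase members and 0.64 over the 22 mitotic members, while the median of all genes was 0.03. FPKM values (fragments scaled to transcript length and library size, which allow levels of different genes to be compared) overlapped between the groups in all 35 members, while 5.45% of the 15970 genes whose mean FPKM reached 0.1 stood apart with knockouts higher and 1.92% with knockouts lower.

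**Figure D1:**
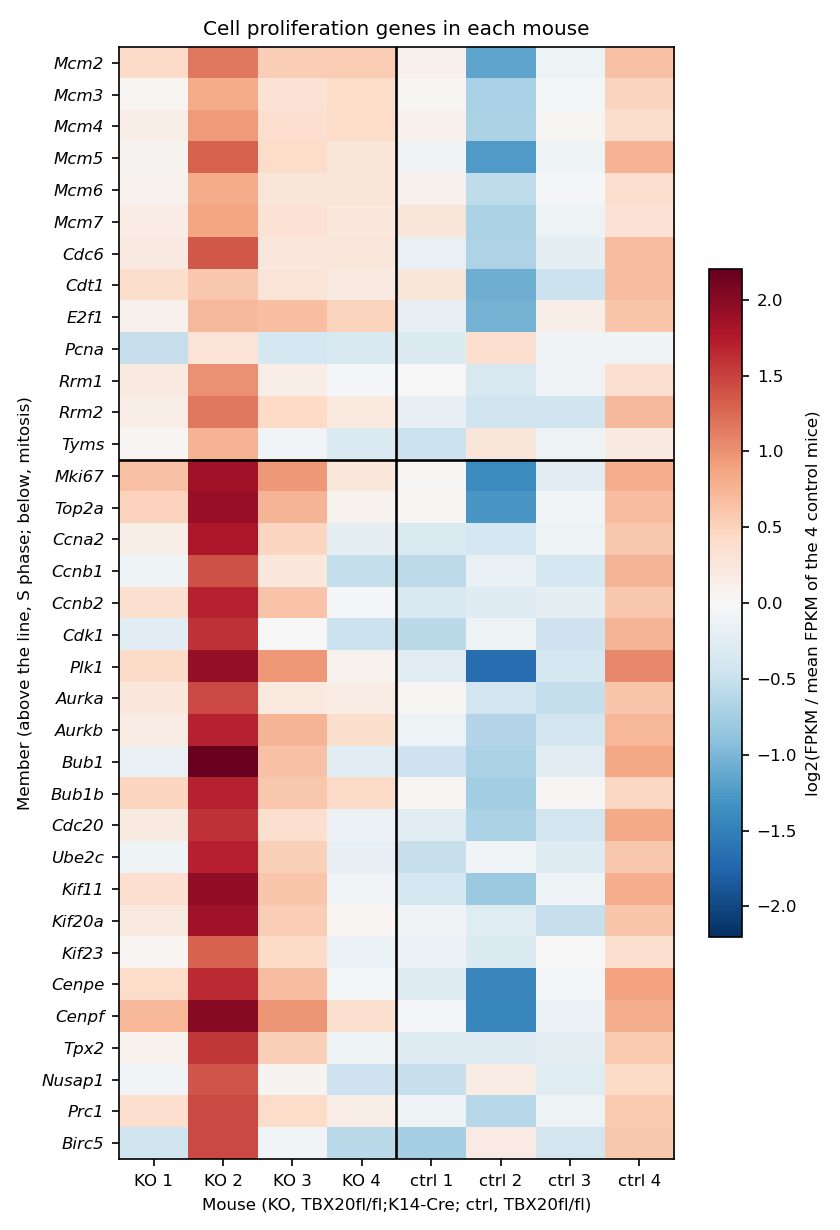
Heat map of the 35 members (rows) in the 8 mice (columns), coloured by log2 of the FPKM over the mean FPKM of the 4 control mice, with S-phase members above the line and mitotic members below it. Knockout replicate 2 is the darkest red column, highest in 33 of 35 members, control replicate 4 is the reddest of the controls, and control replicate 2 is blue in many rows.

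Within each group 1 mouse stood above the others. Knockout replicate 2 had the highest FPKM of the 8 mice in 33 of 35 members, that is in 11 of 13 S-phase and all 22 mitotic members, against 21% of all genes. Its FPKM was 1.17 to 2.18 times the median of the other 3 knockouts in the S-phase members (median 1.54) and 2.12 to 5.0 times in the mitotic members (median 2.68), with the widest gap in Bub1. Over all genes whose mean FPKM reached 0.1 the same ratio had a median of 1.01. Among the controls, replicate 4 was highest in 33 of 35 members, against 32.7% of all genes. It exceeded knockout replicates 1, 3 and 4 in 26 of 35 members, against 25.6% of all genes. Summed over the 22 mitotic members, FPKM was 96.9, 272.1, 119.4 and 80.0 in knockout replicates 1 to 4 and 70.7, 67.5, 73.3 and 136.5 in control replicates 1 to 4. Summed over the 13 S-phase members it was 183.3, 317.6, 201.2 and 198.7 in knockouts and 190.2, 225.5, 201.7 and 235.4 in controls. Both sums were highest in knockout replicate 2 and next highest in control replicate 4. Leaving these mice aside, a choice made after their values were seen, the mitotic sum was higher in each remaining knockout than in each remaining control. With all mice, control replicate 4 lay above knockout replicates 1, 3 and 4. The S-phase sum, most of which was Pcna, was interleaved among the remaining mice. How many of all genes separate in that way was not computed. The mean log2 CPM of the S-phase members, in which each gene counts alike, was 4.32, 5.06, 4.43 and 4.34 in knockout replicates 1 to 4. In control replicates 1 to 4 it was 4.16, 4.08, 4.12 and 4.66. Here too the groups separated only with knockout replicate 2 and control replicate 4 left aside after seeing the values, since control replicate 4 lay above knockout replicates 1, 3 and 4.

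Values without knockout replicate 2 were therefore computed for the whole list. The median log2 fold change was then 0.13 over the 35 members, 0.13 over the S-phase members and 0.10 over the mitotic members, and 26 of 35 were above 0, against 50.9% of all genes. With a trend by transcript length also removed from every library, an alternative chosen after seeing the data, the medians were 0.0426 over the list and 0.0224 over the mitotic members, of which 11 were above 0 and 11 below, and 20 of 35 members were above 0, against 50.5% of all genes. In the fit without knockout replicate 2 alone, 0 members were higher and 0 lower at an unadjusted p under 0.05, against 1.41% and 4.06% of all genes. Leaving out control replicate 4 instead gave 13 members with an unadjusted p under 0.05, all higher, against 3.69% of all genes higher in that fit, and a median of 0.73 over the list. Without knockout replicate 4 the count was 6, against 2.13% of all genes higher. It was 0 without control replicate 1, 2 or 3, where 3.21%, 3.19% and 1.43% of all genes were higher, and adjusted p-values of the members were above 0.05 throughout. In DESeq2 5 members were higher (Mcm2, Mki67, Top2a, Bub1b and Cenpf), against 3.12% of all genes. Without both mice numbered 2, an alternative chosen after seeing the data, 0 members were higher and 1 (Pcna) was lower, against 6.37% of all genes lower. With the replicate number as a block, 0 members were higher and 1 (Pcna) was lower at an unadjusted p under 0.05, against 3.52% and 6.54% of all genes, and 0% of all genes passed an adjusted p of 0.05.

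**Figure D2:**
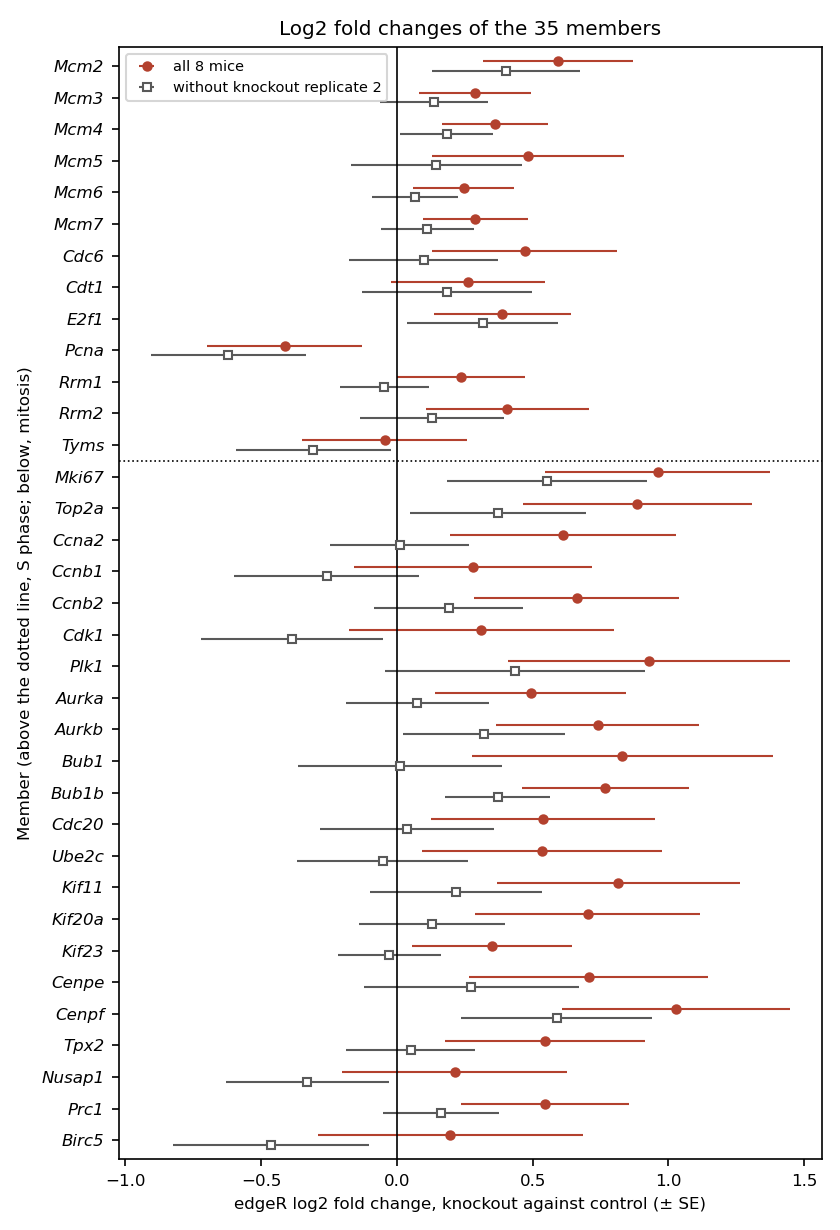
The edgeR log2 fold change, knockout against control, of each member is plotted with its standard error for all 8 mice (filled circles) and without knockout replicate 2 (open squares). With all mice 33 of 35 members lie above 0, and without knockout replicate 2 the mitotic members move to a median of 0.10 and 26 of 35 lie above 0. Values without control replicate 4, with a higher median of 0.73 over the list, are not plotted.

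Control replicate 2 differed from the other mice by transcript length. Its TMM scaling factor was 0.73, against 1.01 to 1.08 in the other 7 mice. Over all genes whose mean count reached 50, its log2 CPM stood 0.91 over the median for the other mice for transcripts under 2000 bases (4059 genes) and 1.08 below it for transcripts of 4000 bases and over (3894 genes). The 3 longest members had low values, with log2 CPM in control replicate 2 relative to the median of the other 7 mice of -1.61 for Cenpf (10543 bases), -1.54 for Mki67 (9375 bases) and -1.34 for Cenpe (7765 bases). The 3 shortest had values of 0.51 for Ube2c (882 bases), 0.90 for Birc5 (1026 bases) and 1.14 for Pcna (1211 bases). Between these ends the members did not follow length closely. The other 4 members under 2000 bases lay below 0, from -0.47 for Aurkb to -0.11 for Aurka, and the median of all 7 was -0.11, against 0.91 for all genes of that length. The 20 members from 2000 to under 4000 bases ran from -1.54 for Plk1 to 0.82 for Tyms (median -0.36), and the 8 of 4000 bases and over from -1.61 for Cenpf to 0.60 for Cdk1 (median -1.003). Control replicate 2 had the lowest FPKM of the 8 mice in 24 of 35 members, against 55.6% of all genes. With the length trend removed from every library, the median over the list was still 0.49, the log2 fold change of Pcna went from -0.41 to -0.01 and that of Mki67 from 0.96 to 0.55, and 1 member (Ccnb2) was higher at an unadjusted p under 0.05, against 3.42% of all genes.

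**Figure D3:**
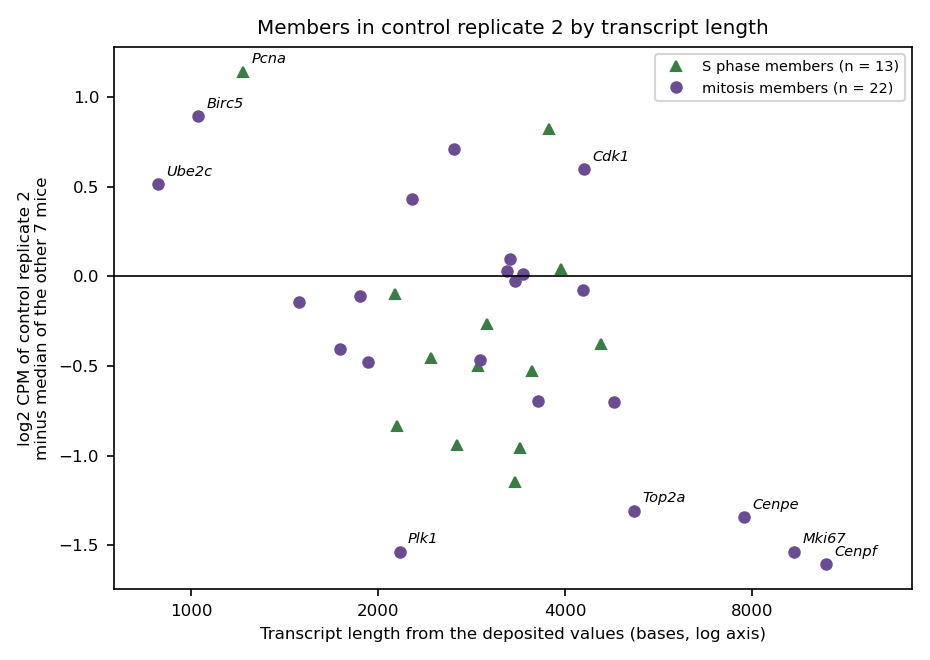
Each point is a member, placed by its transcript length derived from the deposited counts and FPKM (log axis, bases) and by its log2 CPM in control replicate 2 minus the median log2 CPM of the other 7 mice, with triangles for S-phase and circles for mitotic members. Members under 2000 bases lie between -0.47 and 1.14, and those of 4000 bases and over between -1.61 and 0.60.

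All 6 helicase genes had a log2 fold change above 0 with and without knockout replicate 2 (medians 0.33 and 0.14), and none passed an unadjusted p of 0.05 with all mice. Mcm2 (chr6:88883474-88898780), which encodes a subunit of the MCM ring, had FPKM of 5.45, 9.10, 5.89 and 6.01 in knockout replicates 1 to 4 and of 4.33, 1.82, 3.74 and 6.35 in control replicates 1 to 4. All knockouts lay above 3 of the controls, and control replicate 4 lay above 3 of the knockouts. Its log2 fold change of 0.59 ± 0.28 (SE) was the highest of the S-phase members (edgeR adjusted p 0.498), and it was 0.40 without knockout replicate 2. Mcm5 (chr8:75109468-75128439), whose promoter is printed above, had FPKM of 4.60, 10.89, 5.85 and 5.35 in knockouts and of 4.19, 1.88, 4.13 and 7.54 in controls. Knockout replicate 2 and control replicate 4 again led their groups, and its log2 fold change was 0.48 ± 0.35, or 0.14 without knockout replicate 2. Among the other ring subunits the level was highest in Mcm6, with a mean FPKM of 19.9 ± 4.74 (SD, n = 4) in knockouts and 15.2 ± 3.78 (n = 4) in controls. Mcm7 had means of 15.6 ± 3.74 and 11.6 ± 3.41, Mcm3 of 9.15 ± 2.09 and 6.84 ± 2.22, and Mcm4 of 8.77 ± 2.15 and 6.22 ± 1.76. For all 6 subunits the log2 fold change was above 0 with and without knockout replicate 2, in a range of 0.25 to 0.59 with all mice. The 6 proteins work as 1 complex, and their transcripts were highest in the same mouse.

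The genes that license origins and start the S-phase programme had lower levels. E2f1 (chr2:154559400-154569892), a transcription factor that switches on S-phase genes, had FPKM of 3.03, 4.63, 4.50 and 3.97 in knockouts and of 2.50, 1.38, 3.14 and 4.31 in controls. The groups overlapped through control replicates 3 and 4, and the log2 fold change was 0.39 ± 0.25 with all mice and 0.32 without knockout replicate 2. E2f1 was the S-phase member in which knockout replicate 2 stood out least, at 1.17 times the median of the other knockouts. Cdt1, the loading factor for the ring, was highest in control replicate 4 (3.73 FPKM), with means of 3.03 ± 0.363 and 2.33 ± 1.17 (SD, n = 4 each). Cdc6, its partner in loading, was the scarcest member of this phase, with means of 1.01 ± 0.463 and 0.66 ± 0.285, and stood at 1.70 in knockout replicate 2 against 0.76, 0.78 and 0.78 in the other knockouts.

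The replication fork and nucleotide supply genes included both members below 0. Pcna (chr2:132249286-132253180) was by far the most abundant member, with FPKM of 93.2, 162.0, 101.3 and 104.3 in knockouts and of 107.5, 169.5, 125.5 and 124.7 in controls. Knockout replicates 1, 3 and 4 lay below every control, while knockout replicate 2 lay above 3 of the controls, and control replicate 2, in which short transcripts stood high, was the highest of all. Its log2 fold change was -0.41 ± 0.28 (edgeR adjusted p 0.512) with all mice, -0.62 without knockout replicate 2, -0.38 with the replicate block (adjusted p 0.405) and -0.01 with the length trend removed. Of the stretches of 50 bases in its transcripts 19.1% occur also in the pseudogene Pcna-ps2, so its counts are uncertain by as much as the counting divided such reads. Tyms (chr5:30038468-30073645), thymidylate synthase, had FPKM of 6.77, 11.19, 6.36 and 5.29 in knockouts and of 4.75, 7.98, 6.13 and 7.58 in controls. These values were fully interleaved apart from knockout replicate 2, and the log2 fold change was -0.04 ± 0.30, which became 0.12 in limma on log2(FPKM + 1) and 0.22 without control replicate 2. Rrm2 (chr12:24708254-24714146), the small subunit of ribonucleotide reductase, which makes the building blocks of DNA, had FPKM of 6.68, 13.52, 8.15 and 6.96 in knockouts and of 5.28, 4.44, 4.45 and 9.90 in controls. Every knockout lay above control replicates 1 to 3, control replicate 4 lay above knockout replicates 1, 3 and 4, and the log2 fold change was 0.41 ± 0.30, or 0.13 without knockout replicate 2. Rrm1, the large subunit, had means of 19.0 ± 6.90 and 14.5 ± 2.96 (SD, n = 4 each) and a log2 fold change of 0.24.

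**Figure D4:**
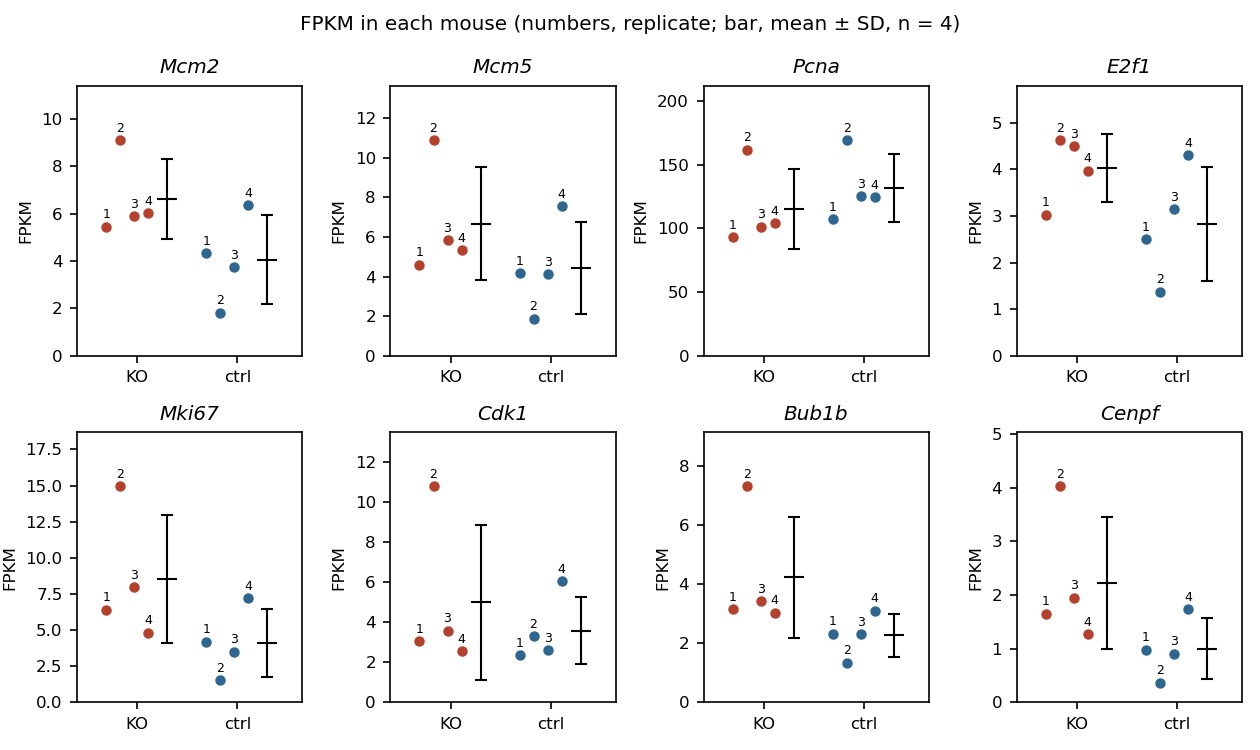
FPKM of 4 S-phase members (top) and 4 mitotic members (bottom) in each mouse, with the replicate number above each point, knockouts on the left, controls on the right, and the mean ± SD of each group of 4 beside the points. Replicate 2 is the highest knockout and replicate 4 the highest control in all panels except Pcna, where replicate 2 is the highest in both groups.

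The chromosome genes of mitosis had the highest median log2 fold change of the groups by role (0.92), which with the length trend removed was 0.61, below the checkpoint (0.66) and cyclin and kinase (0.62) genes. Mki67 (chr7:135689784-135716450), which encodes Ki-67, the coat of mitotic chromosomes used as the standard marker of dividing cells, had FPKM of 6.42, 14.94, 7.99 and 4.83 in knockouts and of 4.21, 1.56, 3.52 and 7.22 in controls. All knockouts lay above control replicates 1 to 3, and control replicate 4 lay above knockout replicates 1 and 4. The log2 fold change was 0.96 ± 0.42 (edgeR unadjusted p 0.045, adjusted p 0.498), 0.55 without knockout replicate 2, 0.55 with the length trend removed and 0.06 with both. Top2a (chr11:98992947-99024199), the topoisomerase that untangles sister chromatids, had FPKM of 9.99, 26.51, 11.69 and 7.40 in knockouts and of 7.21, 2.87, 6.68 and 11.22 in controls. Its order of mice was that of Mki67, and its log2 fold change was 0.89 ± 0.42, or 0.37 without knockout replicate 2.

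The 7 cyclins and kinases that drive entry into mitosis summed to 78.6 FPKM in knockout replicate 2, to 22.5 to 34.1 in the other knockouts and to 19.9 to 42.2 in controls. Cdk1 (chr10:69335146-69352912), the kinase that triggers mitosis, had FPKM of 3.05, 10.78, 3.58 and 2.57 in knockouts and of 2.37, 3.30, 2.62 and 6.04 in controls. The other 3 knockouts overlapped control replicates 1 to 3, and the log2 fold change went from 0.31 ± 0.49 with all mice to -0.39 ± 0.34 without knockout replicate 2. Ccnb1 (chr13:100778739-100786486), which encodes cyclin B1, had FPKM of 7.67, 21.75, 9.62 and 5.75 in knockouts and of 5.49, 7.39, 6.26 and 13.78 in controls. Its mice were interleaved in the same way, with log2 fold changes of 0.28 ± 0.44 and, without knockout replicate 2, -0.26 ± 0.34. Pseudogenes share 23.4% of its stretches of 50 bases, which makes its counts uncertain. Plk1 (chr7:122159435-122169884), polo-like kinase 1, which acts at centrosomes and kinetochores, had FPKM of 2.08, 5.96, 3.03 and 1.65 in knockouts and of 1.32, 0.49, 1.20 and 3.23 in controls. All knockouts lay above control replicates 1 to 3, and the log2 fold change was 0.93 ± 0.52, or 0.44 without knockout replicate 2, from as few as 17 counts in control replicate 2. Aurkb (chr11:69045624-69051664), Aurora kinase B, which corrects faulty attachments of chromosomes, had FPKM of 2.10, 6.04, 3.14 and 2.45 in knockouts and of 1.74, 1.20, 1.42 and 3.12 in controls. Here too the knockouts lay above control replicates 1 to 3, with a log2 fold change of 0.74 ± 0.37, or 0.32 without knockout replicate 2. Group means of FPKM were 8.01 ± 5.58 in knockouts and 4.73 ± 1.63 in controls for Ccna2 (cyclin A2), 6.37 ± 3.68 and 3.61 ± 1.24 for Ccnb2, and 3.46 ± 1.78 and 2.23 ± 0.849 for Aurka (Aurora kinase A, which acts at spindle poles; SD, n = 4 each).

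The spindle checkpoint delays the separation of chromosomes until all are attached, and the anaphase-promoting complex (APC/C) then starts it. Bub1b (chr2:118598202-118641592), which encodes the checkpoint protein BubR1, had FPKM of 3.15, 7.30, 3.43 and 3.03 in knockouts and of 2.32, 1.34, 2.30 and 3.10 in controls. The groups overlapped by 1 pair of mice, knockout replicate 4 and control replicate 4, which is the least overlap in the list. Its log2 fold change was 0.77 ± 0.31 (edgeR unadjusted p 0.033, adjusted p 0.498) and 0.37 ± 0.19 without knockout replicate 2, and its two-sided exact permutation test on FPKM gave p 0.0571, where the smallest p that the 70 assignments of the mice allow is 0.0286. Over the 35 members the exact permutation p ran from 0.0571 to 0.80. Cdc20 (chr4:118432901-118437343), an activator of the APC/C, had FPKM of 4.70, 12.25, 5.27 and 3.74 in knockouts and of 3.44, 2.51, 3.10 and 7.29 in controls. Its log2 fold change of 0.54 ± 0.41 came to 0.04 without knockout replicate 2. Bub1, the checkpoint kinase, showed the widest gap within a group, 4.30 FPKM in knockout replicate 2 against 0.86, 1.49 and 0.81 in the other knockouts and 0.70, 0.59, 0.81 and 1.73 in controls. Ube2c, the ubiquitin-conjugating enzyme of the APC/C, had means of 13.1 ± 9.03 and 8.03 ± 2.85 (SD, n = 4 each), with 26.32 in knockout replicate 2.

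Motors, kinetochore proteins and the machinery that splits the cell made up the last 9 members. Cenpf (chr1:189639350-189688107), a large kinetochore protein, had FPKM of 1.65, 4.02, 1.95 and 1.27 in knockouts and of 0.98, 0.37, 0.91 and 1.74 in controls. Every knockout lay above control replicates 1 to 3, and its log2 fold change of 1.03 ± 0.42 was the highest in the list with all mice (edgeR unadjusted p 0.035, adjusted p 0.498). It was 0.59 without knockout replicate 2, 0.60 with the length trend removed, where Plk1 (0.98), Ube2c (0.91) and others were higher, and 0.07 with both. Kif11, the motor that pushes spindle poles apart, had FPKM of 4.43, 13.28, 5.23 and 3.30 in knockouts and of 2.62, 1.94, 3.20 and 5.94 in controls. Knockout replicates 1, 3 and 4 lay between control replicates 3 and 4, with a log2 fold change of 0.81 ± 0.45, or 0.22 without knockout replicate 2. The deposited table places Kif11 on an unplaced scaffold, so no chromosome position is given. Cenpe, a kinetochore motor, had means of 1.97 ± 1.06 and 1.12 ± 0.695, and the spindle assembly factor Tpx2 of 6.53 ± 3.85 and 4.09 ± 1.33 (SD, n = 4 each). Nusap1, which bundles spindle microtubules, had means of 10.9 ± 6.98 and 8.17 ± 2.37, and Prc1, which bundles those of the midzone, of 8.31 ± 3.86 and 5.15 ± 1.84. The cytokinesis motors Kif20a and Kif23 had means of 4.57 ± 3.05 and 2.52 ± 0.907, and of 4.11 ± 1.99 and 2.86 ± 0.563. Birc5, which encodes survivin, a partner of Aurora kinase B, had means of 8.15 ± 6.28 and 6.39 ± 2.59, and its log2 fold change went from 0.20 with all mice to -0.46 without knockout replicate 2. Of these 9, 6 kept a log2 fold change above 0 without knockout replicate 2, and Kif23, Nusap1 and Birc5 were below 0.

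In further genes of both phases knockout replicate 2 was again mostly the highest mouse, but the values without it did not all match those of the members. Among 45 further S-phase genes 0 were higher and 0 lower at an unadjusted p under 0.05, with a median log2 fold change of 0.23, or -0.04 without knockout replicate 2. Without that mouse 19 of the 45 were above 0, against 10 of 13 S-phase members. Knockout replicate 2 was highest in 38 of the 45. Among 56 further G2/M genes 6 were higher and 1 was lower, against 2.45% and 5.91% of all genes, with a median of 0.49, or 0.04 without knockout replicate 2, which was highest in 54 of the 56. Without that mouse 1 was higher and 0 lower, against 1.41% and 4.06% of all genes. With the replicate block 0 were higher and 0 lower, against 3.52% and 6.54%. The genes named by smallest p were Cdca2, which helps to restore chromatin after mitosis (log2 fold change 1.06 ± 0.36, unadjusted p 0.015), Ncaph, a condensin subunit (0.81 ± 0.32, p 0.033), and Pttg1, the securin that holds back chromosome separation (-0.72 ± 0.29, p 0.034), each with an edgeR adjusted p of 0.498. Pttg1 had FPKM of 47.2, 41.8, 40.7 and 46.1 in knockouts and of 54.2, 88.8, 62.2 and 46.1 in controls. It did not follow the pattern of most genes of its list, since knockout replicate 2 and control replicate 4 were not high in it, and with the length trend removed the log2 fold change of this 714-base transcript was -0.11.

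Among the genes that govern the decision to divide, medians were near those of the S-phase lists or lower. Of 14 G1 cyclins, kinases and growth genes 1 was higher and 0 were lower at an unadjusted p under 0.05, against 2.45% and 5.91% of all genes, shares that hold for all 3 lists here, with a median log2 fold change of 0.26. That gene was Mycn, a growth-promoting transcription factor, with FPKM of 0.26, 5.25, 1.14 and 0.43 in knockouts and of 0.36, 0.32, 0.60 and 0.41 in controls. The difference came from knockout replicate 2, at 12.2 times the median of the other knockouts, and the log2 fold change of 1.90 ± 0.84 (edgeR adjusted p 0.498) was 0.38 without it. Of 23 cell cycle inhibitors 0 were higher and 1 lower, which is no more than the 5.91% of all genes, with a median of -0.12 that became 0.05 with the length trend removed and 0.04 in limma on log2(FPKM + 1). The 1 lower was Gadd45b, a stress-response gene, with FPKM of 23.8, 31.1, 24.2 and 30.8 in knockouts and of 36.9, 42.3, 34.7 and 27.6 in controls (log2 fold change -0.57 ± 0.23, edgeR adjusted p 0.498), which was -0.18 with the length trend removed. Summed FPKM of the inhibitors, in which the abundant Ccng1 and Cdkn1a weigh most, was even across mice, at 586.9 to 625.6 in knockouts and 581.4 to 650.2 in controls. With each gene counted alike, the mean log2 CPM was 4.70 to 4.91 in knockouts, highest in knockout replicate 2, and 4.76 to 5.00 in controls, highest in control replicate 2. Knockout replicate 2 was the highest mouse in 7 of 23, against 21% of all genes. Of 22 keratinocyte growth factors and receptors 0 were higher and 0 lower, with a median of 0.22 that was 0.0458 with the length trend removed. In edgeR's test no gene of these 5 lists passed an adjusted p of 0.05.

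Markers of other cells moved with the same mice. Over 17 measured genes of hair matrix and shaft, such as the inner root sheath keratins Krt25 and Krt71 and the matrix factors Msx2 and Hoxc13, summed FPKM was 1877 in knockout replicate 2, against 45.3, 273.0 and 71.1 in the other knockouts and 22.1 to 139.3 in controls. All 17 were highest in knockout replicate 2, 12 of 17 were higher in knockouts at an unadjusted p under 0.05 (2.45% of all genes), and Krt33b, Krt34 and Shh were at 0 in some mice. The count of higher hair genes was 2 without knockout replicate 2, 4, 8, 5 and 5 without control replicates 1, 2, 3 and 4, 9 with the replicate block and 1 in limma on log2(FPKM + 1). Their median log2 fold change was 2.24, or 0.55 without knockout replicate 2. Melanocyte genes summed to 67.4 FPKM in knockout replicate 2 and to 5.00 to 14.9 in the other 7 mice, with all 5 genes highest in that mouse. In control replicate 4 the wound keratins stood apart: the sum over Krt6a, Krt6b, Krt16 and Krt17 was 1038, against 285.3 to 325.2 in the other controls and 241.1 to 491.2 in knockouts. In this sum knockout replicate 2 was the highest of the knockouts, at 1.79 times the median of the others. Most of its sum was Krt17, in which it was the highest of all 8 mice, with an FPKM of 404.5. With each gene counted alike it did not lead, since the mean log2 CPM was 5.28, 5.83, 5.84 and 6.52 in knockout replicates 1 to 4. At an unadjusted p under 0.05, 3 of these 4 keratins were lower in knockouts, against 5.91% of all genes. That count was 0 without control replicate 4, 0 without knockout replicate 1, 2 or 3, 2 without knockout replicate 4, 2 with the replicate block, 1 with the length trend removed and 0 in limma on log2(FPKM + 1). Krt16 alone was 228.6 in control replicate 4 and 7.93 to 40.1 in the other mice. Basal keratinocyte genes were even, with sums of 2531 to 2894 in knockouts and 2387 to 3117 in controls. Over the 13 marker lists other than hair, melanocyte and wound keratinocyte genes, summed FPKM in knockout replicate 2 was 0.642 to 1.19 times the median of the other knockouts. Neutrophil genes, from cells that no longer divide, summed to 216.8, 326.8, 274.0 and 418.9 FPKM in knockouts and to 441.8, 1140, 498.4 and 1104 in controls, so that control replicates 2 and 4 stood high. At an unadjusted p under 0.05, 6 of 8 were lower (7 with the replicate block), against 5.91% of all genes. Neutrophil precursor genes, of which 4 of 8 were lower, summed to 13.5, 8.68, 10.6 and 21.98 FPKM in knockouts and to 14.03, 41.1, 11.5 and 36.9 in controls, with the same 2 controls high and most of the sum in Chil3. The part of hair follicle, wound or immune cells in the values of the members was not tested.

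**Figure D5:**
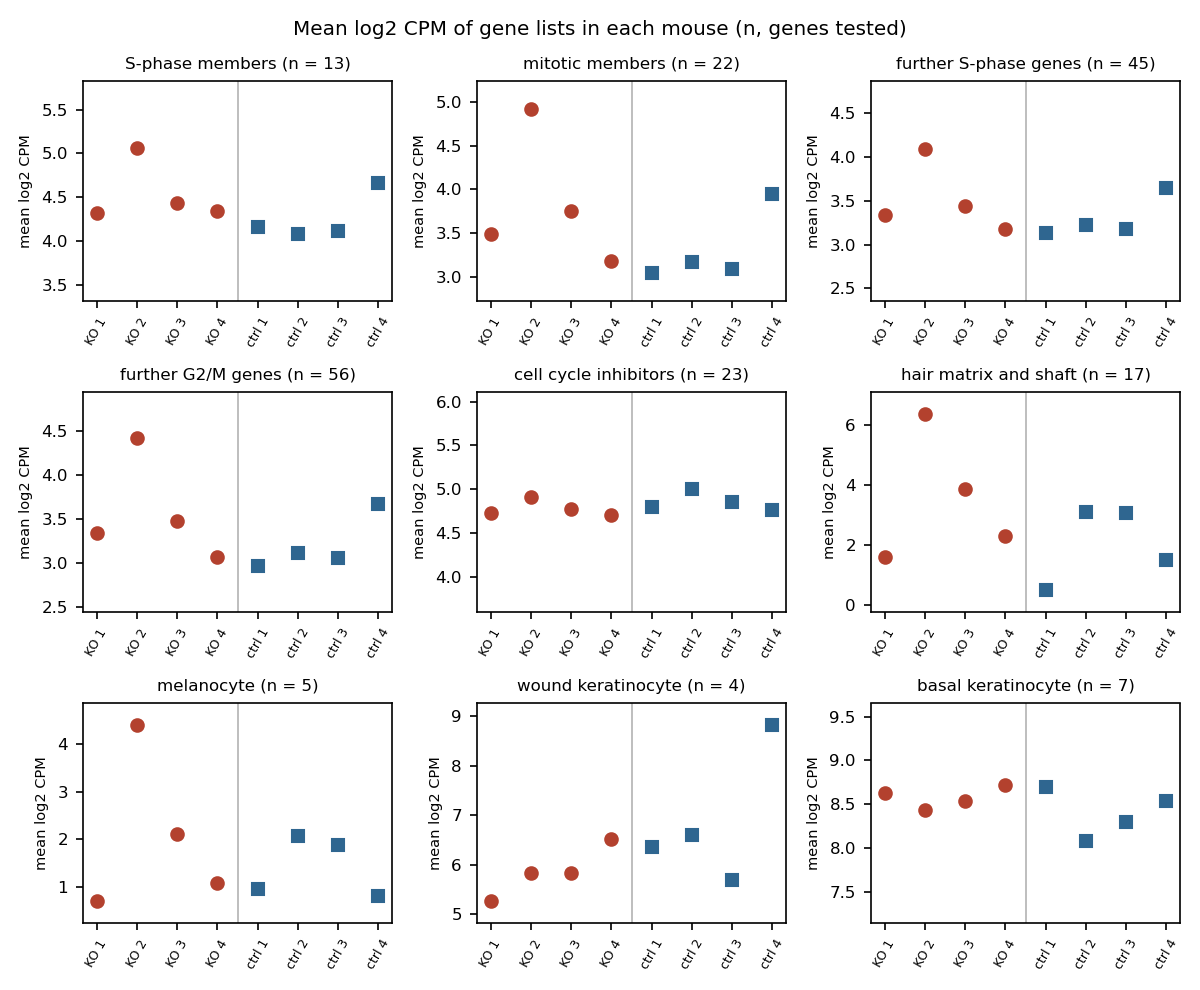
Mean log2 CPM over the tested genes of 9 lists in each mouse (circles, knockouts; squares, controls), with the number of genes in each title and vertical axes that do not start at 0. Knockout replicate 2 is highest for the members, the further cell cycle genes, hair matrix and shaft (6.36) and melanocyte genes (4.39), and control replicate 4 is highest for wound keratinocyte genes (8.81).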

How the data were processed

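For skin of 8 mice the authors obtained single-end reads of 50 bases, which were filtered with SOAPnuke and, per the submitters' processing notes, aligned with HISAT. The program that counted reads is not given in the sources used here. The authors deposited unnormalized estimated counts (expected counts, of which 69.0% of those above 0 were not whole) and FPKM values, which they normalized for transcript length and library size with the Dr. Tom platform. A further 16 columns of per-sample values (TPM and scaled counts), 40 columns of group means and the authors' 17 comparisons with fold changes, p-values and q-values were not used. Coordinates (GRCm38) were copied from that table.

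Counts were rounded. Genes with at least 10 counts over the 8 libraries were scaled by TMM and compared by edgeR 4.0.16 (quasi-likelihood test, R 4.3.3), with Benjamini-Hochberg adjustment and a threshold of 0.05. Errors are standard errors of the log2 fold change, or SD for means. Alternatives were DESeq2 1.42.0, other scalings and filters, limma 3.58.1 on log2(FPKM + 1) or log2(FPKM + 0.1), which understates changes of low genes, a transcript length trend removed as an offset, a replicate block and leaving out each mouse. Summaries and figures used Python 3.11.15, pandas 2.3.3, numpy 2.4.6 and matplotlib 3.10.9. The tests were first tested on simulated counts with known changes.

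At totals of 16056282 to 19880654 counts, 3 counts correspond to 0.151 to 0.187 CPM, which covers counting error only. Each mouse is 1 replicate. Deviations of same-numbered mice, which are different animals, from their group means correlated at 0.323, 0.275, 0.176 and 0.108, each over 0.1. By that rule the label numbers were used as a block in an alternative fit. The main test is unpaired. The numbers are not a clear pairing, since of the 12 differently numbered pairs 3 were also over 0.1 (0.32 for knockout 4 with control 1, 0.139 for knockout 2 with control 3 and 0.136 for knockout 3 with control 4). Reads were not realigned, and shared sequence was measured as stretches of 50 bases of a transcript found also in another gene. Most was shared by Kif20a (25.2%), Ccnb1 (23.4%), Mcm7 (23.3%), Pcna (19.1%), Ube2c (16.0%), Ccna2 (11.4%), Cdc20 (10.6%) and Plk1 (10.4%), whose counts are uncertain to that extent where the counting divided or dropped such reads.

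The members and all lists were chosen with earlier results of these data known. Described mouse by mouse are 16 members listed in the naming rule and every other member with an unadjusted p under 0.05, of which there was none. From each further list the up to 3 genes with the smallest such p are named. Bub1 and Cdc6 are also given mouse by mouse, chosen after their values were seen.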

Additional observations from a re-analysis of the deposited data

Results flagged for a closer look

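A Dixon test for a single distant value in a group of 4 mice (95% critical value) was applied to 118 groups, of which 20 passed, where chance gives about 1 in 20, or 5.9. Of the 70 groups of member FPKM 15 passed, against 3.5 by chance. The groups share the same mice and are not independent.

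Knockout replicate 2 was the distant value in 12 of these 15. Its FPKM was 9.1 in Mcm2, 21.14 in Mcm7, 1.7 in Cdc6, 162.0 in Pcna and 29.23 in Rrm1 among the S-phase members. Among the mitotic members it was 10.78 in Cdk1, 6.13 in Aurka, 7.3 in Bub1b, 9.09 in Kif20a, 21.24 in Nusap1, 14.05 in Prc1 and 17.48 in Birc5. Control replicate 4 was the distant value in the other 3, with FPKM of 9.9 in Rrm2, 5.46 in Ccnb2 and 6.08 in Tpx2.

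The same mice stood apart in the mean log2 CPM of whole lists. Over the S-phase members knockout replicate 2 had 5.059 and control replicate 4 had 4.658. Control replicate 4 also stood apart over the mitotic members, at 3.949, over all members, at 4.212, and over the further S-phase genes, at 3.64. What sets these mice apart was not tested.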

How the results depend on the processing

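In all, 37 values were followed through 12 other settings and the leaving out of each of the 8 mice. A gene was scored as kept with the same direction and side of adjusted p 0.05, and a count if it stayed within 1.5 times. A list median was scored as kept if it moved by less than the SD over mice of the list's mean log2 CPM. By these rules 656 of 740 recomputed values were kept. That SD is large where single mice stand apart, so a kept median can still have moved far. Since no gene passed with all mice, a gene could change side only by passing. No setting brought a member past an adjusted p of 0.05. DESeq2, as the only tool to call any, called 10 genes over the whole table. Removing both mice numbered 2, and removing the length trend without knockout replicate 2, were chosen after seeing the data. The limma fits moved the median of all genes from 0.03 to 0.12 (pseudocount 1) and 0.18 (pseudocount 0.1), or to 0.0575 with pseudocount 1 and no filter, and the member medians of 0.475 and 0.57 are to be read against these. Where a value changed below, the cause was not tested.

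With the replicate block, the count of members with an unadjusted p under 0.05 was 0 higher and 1 lower, in place of 3 and 0. It was 1 among further S-phase genes, 0 among further G2/M genes and 0 among G1 genes, and the median over the members was 0.42. Block and length trend together gave 0 members higher, 3 further S-phase genes, 1 further G2/M gene, 2 inhibitors, medians of 0.0596 for inhibitors and 0.0328 for growth factors, and -0.068 for Cdk1. In this section counts for the further lists take both directions together. Where no share of all genes stands beside such a count, it cannot be read against the background. Among marker genes the block alone gave 9 higher hair genes in place of 12, 2 lower wound keratins in place of 3 and 7 lower neutrophil genes in place of 6. The block alone brought no gene past an adjusted p of 0.05.

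The count of members higher was 5 with DESeq2 (3.12% of all genes), 1 with the length trend removed (3.42% of all genes), 0 without both mice numbered 2, where 1 was lower (6.37% of all genes), and 0 with the length trend removed and without knockout replicate 2, where further S-phase genes counted 1, further G2/M genes 1 and inhibitors 0 and the growth factor median was 0.0273. Further S-phase genes counted 1 with DESeq2, 1 with the length trend removed and 4 without both mice numbered 2, where further G2/M genes counted 1. G1 genes counted 0 with RLE size factors, filterByExpr, the limma fits and without both mice numbered 2, and 2 with the length trend removed. Inhibitors counted 2 with DESeq2, 0 in the limma fits and 3 with the length trend removed, and growth factors then 1. The inhibitor median became 0.0364 (pseudocount 1, with and without the filter) and 0.0458 in the limma fits and 0.0548 with the length trend removed, which took the growth factor median from 0.22 to 0.0458.

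Without both mice numbered 2 the log2 fold change turned to -0.17 for Ccnb1, -0.29 for Cdk1, -0.0384 for Cdc20 and -0.0359 for Mcm5. With the length trend removed and without knockout replicate 2 it turned to -0.19 for Ccnb1, -0.68 for Cdk1 and -0.0653 for Kif11. Tyms turned to 0.12 and 0.13 in the limma fits. These are 16 reversals among 420 values of named genes, counting the leaving out of single mice.

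Leaving out each mouse gave 0 to 13 members higher and 0 to 0 lower, and medians of 0.13 to 0.73 over all members, 0.13 to 0.47 over S-phase and 0.10 to 0.88 over mitotic members. Medians ranged from -0.04 to 0.38 in further S-phase genes (0 to 11 genes), 0.04 to 0.69 in further G2/M genes (1 to 18), 0.14 to 0.39 in G1 genes (0 to 1), -0.174 to -0.011 in inhibitors (0 to 3) and 0.12 to 0.32 in growth factors (0 to 6). Among genes that turned, the range was -0.26 to 0.56 for Ccnb1, -0.39 to 0.59 for Cdk1 and -0.31 to 0.22 for Tyms. The lowest medians are those without knockout replicate 2 and the highest those without control replicate 4 for the members by phase and overall.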
